A study of Mus musculus with 2 samples.

Results

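Translation factors and aminoacyl-tRNA synthetases were examined in murine effector CD8+ T cells, comparing cells after stimulation 1 and after stimulation 2 in culture. The titles number the stimulations 1 and 2 while the descriptions count rounds of restimulation, so whether an earlier stimulation came before them is not known. Both stages are of pmel mice, a transgenic line with a T cell receptor specific for gp100, a melanocyte protein. Their total RNA was compared within 2-channel microarrays, with the 1-stimulation cells in channel 1 and the 2-stimulation cells in channel 2. The series holds 2 such arrays in 1 group, and the second is labelled a repeat. The labels used here give no age, no sex, no stimulus and no dye, and do not say whether the repeat came from a new culture, so errors and p-values measure only how far the arrays differ, possibly for technical reasons. Members were chosen by gene symbol alone: initiation factors (symbols starting Eif1 to Eif6, without the eIF2 kinases), elongation factors and the genes named after them (Eef1 and Eef2), and aminoacyl-tRNA synthetases (symbols ending in "ars", with or without 1, 2, a or b). The rule found 74 genes, on 81 probes, of 14150 genes with a singly named probe and a value on both arrays. They were 37 initiation, 13 elongation, 17 cytosolic synthetase and 7 mitochondrial synthetase genes, and every member probe had a value on both arrays.

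Protein synthesis begins when initiation factors bring the methionine-carrying initiator tRNA and the small ribosomal subunit to the start codon of a messenger RNA. Elongation factors then deliver each charged tRNA to the ribosome and move the ribosome along. Aminoacyl-tRNA synthetases charge each tRNA with its amino acid, and cells hold a cytosolic and a mitochondrial set, the latter mostly encoded by genes with a symbol ending in 2. T cells raise protein synthesis when they are activated, and the kinase GCN2, the Myc protein and the stress-response factor ATF4 are known to control parts of this machinery.

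Each value is a log2 ratio of the 2 channels of a probe, and a gene with several probes has their mean. The sources used here do not say which channel was divided by which. Since the labels name the 1-stimulation cells first, 1 stimulation over 2 is the likely ratio, with no further basis. Read that way, negative genes have more RNA after 2 stimulations, and read the other way the sides swap. Both arrays had the same stage in channel 1, so a dye effect of a probe and a difference in RNA cannot be told apart. The base of the logarithm was taken as 2. Spot intensities were not used here, so the signal behind a ratio is unknown, the ratios do not tell whether a gene is expressed at all, and precision is limited by there being 2 arrays. In bulk RNA, a change in the cells that hold an RNA and a change in RNA per cell cannot be told apart.

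The cytosolic synthetases lay mostly on the negative side of the ratio, and a sequence match found in their promoters is shown first because it was frequent in that class. The core TGATGNAA of the element bound by ATF4 together with a C/EBP partner was searched on both strands of RefSeq promoter windows of GRCm38.p6, which run from 250 bases before to 50 bases after a gene's start. Of the 17 cytosolic synthetase genes 10 had a window in that table, and 5 of these 10 held a match. Among all 27025 genes with a window 4.51% held a match, and among the 11019 of them on the arrays 3.48% did. No match was found in the windows of the 6 mitochondrial synthetase genes that had one, 1 of 28 initiation genes had one (Eif2s3x) and 1 of 9 elongation genes had one (Eef2k). The sites of 4 of these synthetase genes follow, each as 30 bases on the strand that reads TGATGNAA, 5′ to 3′, with the match in capitals.
Iars, chr13:49682126-49682155, minus strand: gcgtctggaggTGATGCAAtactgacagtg
Tars, chr15:11399655-11399684, plus strand: agctaaccagcTGATGCAAcgggactcctg
Yars, chr4:129189895-129189924, plus strand: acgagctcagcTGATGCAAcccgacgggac
Gars, chr6:55037960-55037989, minus strand: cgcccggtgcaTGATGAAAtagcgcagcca
In 3 of these 4 genes the letters were TGATGCAA, and in Gars they were TGATGAAA. The Tars and Gars sites began 15 and 30 bases before the annotated start, and the other sites lay just after it. For Yars the start used by the table lies inside the span RefSeq gives the gene. The match is a description of letters and not of a bound site.

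On the arrays, 4 of the 5 genes with this match were negative on both arrays, and their mean log2 ratios ran from -1.06 for Iars to 0.17 for Gars. Of the 5 genes whose windows lacked it (Farsa, Farsb, Kars, Qars and Sars), 2 were negative on both arrays and the means ran from -0.59 to 0.02. The other 7 (Cars, Hars, Lars, Nars, Rars, Vars and Wars) were not searched. Over all genes 33.6% were negative on both arrays. The ranges of the genes with and without a match overlapped, and no test was made of the difference.

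A second motif, the E box CACGTG that Myc and related factors bind, reads the same on both strands and was found in 4 of the 10 cytosolic synthetase genes (Aars, Farsb, Iars and Tars). It was found in 7 of 28 initiation, 3 of 9 elongation and 1 of 6 mitochondrial synthetase genes, against 8.09% of all genes with a window and 10.3% of those on the arrays. Over all members this was 15 of 53 genes, or 28.3%, and no match of one motif shared letters with a match of the other. The genes with an E box lay on both sides of the ratio, from -1.06 for Iars to 0.59 for Ears2. The 100 bases before the start are shown for Iars and Tars, the synthetase genes farthest on the negative side, on the strand of the gene, 5′ to 3′, with matches to either motif in capitals.
Iars, chr13:49682030-49682129, plus strand: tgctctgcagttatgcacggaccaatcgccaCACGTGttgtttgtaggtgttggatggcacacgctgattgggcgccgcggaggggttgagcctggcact
Tars, chr15:11399659-11399758, minus strand: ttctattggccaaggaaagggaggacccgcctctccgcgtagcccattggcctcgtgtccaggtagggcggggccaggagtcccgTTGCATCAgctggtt
The Iars stretch holds an E box, and the Tars stretch holds the ATF4 core read from the opposite strand.

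The 74 genes lay slightly toward the negative side, and no single gene passed the test over all genes. On both arrays 39 members (52.7%) were negative, against 33.6% of all genes, and 19 (25.7%) were positive, against 29.6%. The median of the members was -0.09 on array 1 and -0.14 on array 2, where the medians of all genes were -0.02 and -0.01. In limma's moderated test 0 members passed a Benjamini-Hochberg adjusted p of 0.05, as did 0.0% of all genes, the smallest adjusted p over all genes being 0.122. At an unadjusted p under 0.05 limma counted 18 members, against 16.2% of all genes. Of these 16 were negative (21.6% of the members, against 10.3% of all genes) and 2 were positive, against 5.86%. This imbalance of p-values was seen only with limma's moderation of the variances: without it 4 members were negative and 4 positive, against 3.75% and 3.36% of all genes. The unmoderated test has only a gene's own 2 values to estimate its spread. It passes genes whose values nearly coincide, even close to 0, so it cannot decide whether the imbalance holds. Half-widths of the 95% confidence intervals had a median of 0.389 over all genes, and the interval of 56 of the 74 members held 0.

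Large ratios were rare among these genes. There were 0 members at least 2-fold from a ratio of 1 in the same direction on each array, against 0.721% of all genes on the negative side and 0.233% on the positive side. At 1.5-fold there were 3, the initiation gene Eif1ax, the synthetase gene Iars and the elongation gene Eef1g, all negative. The background at 1.5-fold was 3.0% of all genes negative and 1.24% positive, so 3 of 74 is close to that share. Members were farther from 0 on array 2 in 50 of 74 genes, while 51.7% of all genes were. Their standard deviation over genes was 0.323 on array 1 and 0.457 on array 2. The log2 ratios of the 2 arrays correlated at r = 0.595 over the 74 members and at 0.519 over all genes, a description across genes that share the same 2 RNA comparisons.

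**Figure D1:**
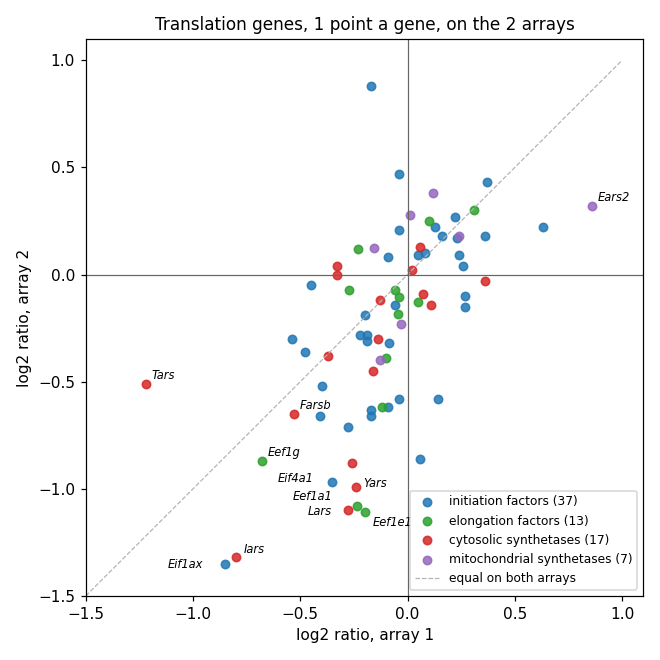
Log2 ratio of each of the 74 genes on array 1 (horizontal axis) and array 2 (vertical axis), 1 point a gene, coloured by class; the dashed line marks equal values and genes with a mean of at least 0.59 from 0 are named. Eif1ax and Iars stand apart at the lower left on both arrays, and Ears2 has the highest mean.

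The classes differed in how their genes fell. On both arrays 10 of 17 cytosolic synthetases were negative and 2 positive, and their median was -0.24 on array 1 and -0.30 on array 2. Of the mitochondrial synthetases 2 of 7 were negative and 4 positive, with medians of 0.01 and 0.18. Initiation factors were split, with 18 of 37 negative and 11 positive and medians of -0.06 and -0.15. Leaving out pseudogenes and modifying or associated proteins, a choice made after the values were seen, 15 were negative and 10 positive. Elongation genes were 9 of 13 negative and 2 positive, with medians of -0.10 and -0.13, near those of the initiation genes. These shares read against 33.6% of all genes negative and 29.6% positive on both arrays.

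The difference between cytosolic and mitochondrial synthetase medians was the widest of the 6 pairs of classes. It was -0.25 on array 1 and -0.48 on array 2, or -0.365 ± 0.163 (SD, n = 2), with the cytosolic class lower on both. The cytosolic class was also below the initiation genes (initiation minus cytosolic, 0.18 and 0.15 on the 2 arrays) and below the elongation genes (0.14 and 0.17). Taken over gene means instead, the medians were -0.22 for cytosolic synthetases, -0.195 for initiation and -0.115 for elongation genes. The gap between the cytosolic and initiation classes thus depends on how the median is taken, and nearly vanishes over gene means. Initiation minus elongation came to 0.04 and -0.02, which changed sign between the arrays. With 2 arrays an exact permutation test of such a difference cannot give a p below 0.5, so none of these differences was tested. The class sizes differ, and the mitochondrial class holds only 7 genes.

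**Figure D2:**
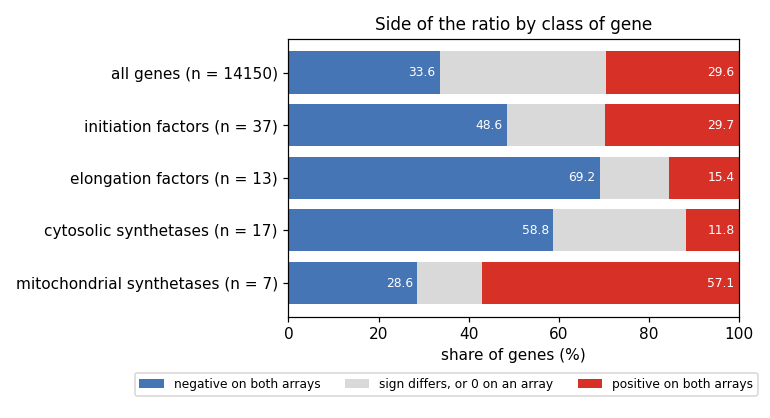
Share of genes (%) of each class that was negative on both arrays (blue), positive on both arrays (red) or neither (grey), with all 14150 genes at the top. The negative share is 58.8% for cytosolic and 28.6% for mitochondrial synthetases, and the positive share is 11.8% and 57.1%.

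Among the cytosolic synthetases, Iars, the isoleucyl-tRNA synthetase gene, was farthest from 0. It read -0.80 and -1.32 on the 2 arrays, a mean of -1.06 ± 0.37 (SD, n = 2) and a 2.09-fold difference, with a limma adjusted p of 0.150. Tars, for threonine, read -1.22 and -0.51, with a mean of -0.87 ± 0.50 (SD, n = 2), and was the member farthest from 0 on array 1. Both genes were negative on each array, but the arrays ranked them differently. Lars, for leucine, read -0.28 and -1.10, Yars, for tyrosine, -0.24 and -0.99, and Nars, for asparagine, -0.26 and -0.88. In these 3 genes the value on array 2 was more than 3 times that on array 1 on the log2 scale, so their size rests on array 2.

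Farsb and Aars agreed closely between arrays. Farsb, the beta subunit of the phenylalanine enzyme, read -0.53 and -0.65, a mean of -0.59 ± 0.08 (SD, n = 2), and Aars, for alanine, read -0.37 and -0.38. For the 7 genes Iars, Tars, Lars, Yars, Farsb, Nars and Aars limma's unadjusted p was under 0.05, with adjusted p between 0.150 and 0.298. That is 41.2% of the class on the negative side, against 10.3% of all genes, and 0 on the positive side, against 5.86%. Without moderation 2 of the class were negative and 1 positive (11.76% and 5.88%, against 3.75% and 3.36% of all genes). Wars, for tryptophan and known as an interferon-induced gene, read -0.16 and -0.45, and Cars, for cysteine, -0.14 and -0.30. Kars, whose gene encodes both the cytosolic and the mitochondrial lysine enzyme, read -0.13 and -0.12, close to 0 on both arrays.

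The remaining cytosolic synthetases had means within 0.17 of 0. Qars, for glutamine, read -0.33 and 0.00, and Rars, for arginine, -0.33 and 0.04. Sars, for serine, read 0.11 and -0.14, and Vars, for valine, 0.07 and -0.09. These 4 genes were negative on only 1 array. Farsa, the alpha subunit that pairs with Farsb, read 0.02 on both arrays, so Farsb was lower than its partner by -0.55 and -0.67. Hars, for histidine, read 0.06 and 0.13, and Gars, which like Kars serves both compartments, read 0.36 and -0.03. Gars had the highest mean of the class at 0.17 ± 0.28 (SD, n = 2).

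The negative cytosolic synthetases did not belong to a single structural group. The multisynthetase complex, an assembly of several synthetases with scaffold proteins, was represented in this class by Iars, Lars, Qars, Rars and Kars, of which 3 of 5 were negative and 0 positive on both arrays. Other measured genes of the complex are not in this count: Eprs (0.19 and -1.065), Aimp1 (0.20 and 0.02) and Eef1e1 (-0.20 and -1.11). Among the 12 other cytosolic synthetases 7 were negative and 2 positive. By catalytic fold, 5 of 8 class I and 5 of 9 class II enzymes were negative, with 0 and 2 positive. These splits were chosen after the values were seen.

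**Figure D3:**
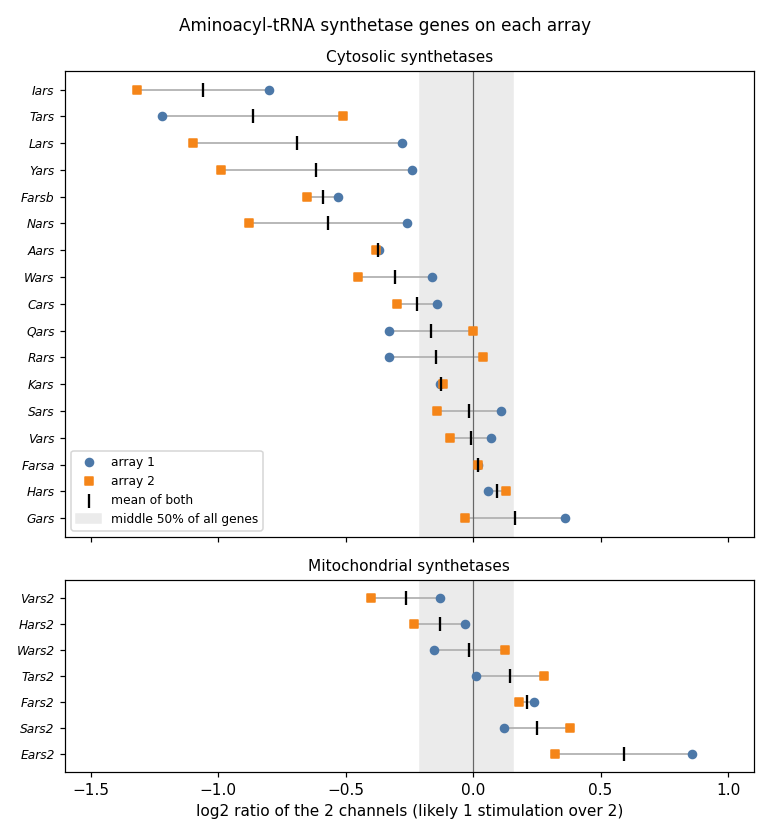
Log2 ratio of each cytosolic (top) and mitochondrial (bottom) synthetase gene on array 1 (circle) and array 2 (square), joined by a line, with a tick at their mean; the grey band holds the means of the middle 50% of all genes, from -0.21 to 0.16. Cytosolic genes from Iars down to Aars lie left of the band on both arrays, and Ears2 and Fars2 lie right of it on both.

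Mitochondrial synthetases charge the tRNAs that read the messages of mitochondrial DNA. Ears2, for glutamate, was farthest on the positive side, with 0.86 and 0.32, a mean of 0.59 ± 0.38 (SD, n = 2) and a limma adjusted p of 0.262. Sars2, for serine, read 0.12 and 0.38, Fars2, for phenylalanine, 0.24 and 0.18, and Tars2, for threonine, 0.01 and 0.28. These 4 genes were positive on both arrays, although all but Ears2 had confidence intervals that held 0. Vars2, for valine, read -0.13 and -0.40 and Hars2, for histidine, -0.03 and -0.23. Wars2 had 2 probes that disagreed on array 1, at 0.17 and -0.48, and read 0.12 and 0.13 on array 2, so its side is not settled.

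For 5 amino acids both compartments had 1 gene each among the members. The cytosolic gene was lower on both arrays for 3 of them: threonine (Tars minus Tars2, -1.23 and -0.79), serine (-0.01 and -0.52) and tryptophan (-0.005 and -0.575), the last 2 by almost nothing on array 1. Since the Wars2 probes disagreed on array 1, the side of the tryptophan difference is not settled there. It was higher on both for histidine (0.09 and 0.36) and valine (0.20 and 0.31). For phenylalanine the enzyme of the cytosol has 2 genes, and Farsb was below Fars2 by -0.77 and -0.83 while Farsa was below it by -0.22 and -0.16. Hars and Hars2 are neighbours in RefSeq's gene table of GRCm38.p6, and both lay near 0. Thus the lower cytosolic median does not hold amino acid by amino acid.

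Initiation factors are described in the order of their numbers. Eif1ax, an eIF1A gene of the X chromosome whose protein helps the ribosome scan to the start codon, had the lowest mean of all 74 members. It read -0.85 and -1.35, a mean of -1.10 ± 0.35 (SD, n = 2) and a 2.14-fold difference, with a limma adjusted p of 0.147. Its relative Eif1a read 0.24 and 0.09 on the other side, a difference of -1.09 and -1.44 that was not tested. Eif1b, a relative of eIF1, read -0.45 and -0.05, and Eif1ad, named for its eIF1A domain, -0.22 and -0.28.

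The genes of eIF2, which carries the initiator tRNA, and of eIF2B, which recharges eIF2 with GTP, did not share a side. Eif2s2, the beta subunit, read 0.06 and -0.86, and Eif2b1 read -0.04 and -0.58. In both the negative value rests on array 2. Eif2b2 read 0.08 and 0.10, Eif2b4 -0.09 and 0.08, and Eif2d, a factor that can deliver tRNA by itself, 0.13 and 0.22. The gamma subunit gene Eif2s3x had 2 probes, at -0.07 and -0.79 on the arrays for the first and -0.10 and 0.15 for the second, which disagreed on array 2. The probe of its relative Eif2s3x-ps1, named as a pseudogene, read -0.09 and -0.62, like the first of these. Whether these probes tell the 2 sequences apart was not tested. Eif2s3y, the Y-linked copy, read 0.26 and 0.04. The genes Eif2s1, Eif2b3 and Eif2b5 were not analysed here.

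The 12 measured genes of eIF3, the large scaffold that links the small subunit to the messenger RNA, were split between the sides. On both arrays 6 were negative and 5 positive, so the complex as a whole had a median near 0, at -0.105 and -0.05. On the negative side were Eif3l (-0.40 and -0.52), Eif3c (-0.48 and -0.36), Eif3b (-0.54 and -0.30), Eif3j1 (-0.17 and -0.66), Eif3i (-0.19 and -0.28) and Eif3d (-0.20 and -0.19). On the positive side were Eif3e (0.63 and 0.22), Eif3a (0.37 and 0.43), Eif3h (0.36 and 0.18), Eif3f (0.22 and 0.27) and Eif3k (0.05 and 0.09), and Eif3m read -0.04 and 0.21. In all, 11 of the 12 genes had 1 side on both arrays, and Eif3j1 and Eif3e differed most between arrays. Eif3l, Eif3c and Eif3b on one side and Eif3a on the other had an unadjusted limma p under 0.05, with adjusted p between 0.248 and 0.286.

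The eIF3 subunits were also read by their place in the complex, a split made after the values were seen. Of the 8 subunits that form the octameric core with PCI and MPN domains (a, c, e, f, h, k, l and m), 5 were positive and 2 negative on both arrays. The 4 measured subunits outside it (b, d, i and j) were negative on both arrays. The medians were 0.135 and 0.195 for the octamer genes and -0.195 and -0.29 for the others. Eif3c and Eif3l, which belong to the octamer, went with the others.

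The genes of eIF4, which binds the cap of the messenger RNA and unwinds it, differed by part. The helicase gene Eif4a1 read -0.35 and -0.97, a mean of -0.66 ± 0.44 (SD, n = 2), its cofactor Eif4b -0.28 and -0.71, and Eif4a3, a helicase of the exon junction complex, -0.41 and -0.66. These 3 genes were lower on array 2 than on array 1 and had limma adjusted p between 0.226 and 0.279. Eif4a2, the other eIF4A helicase, read -0.04 and 0.47, so that Eif4a1 lay below it by -0.31 and -1.44. The cap-binding gene Eif4e read 0.27 and -0.10, its relative Eif4e2, which represses translation, 0.16 and 0.18, and Eif4e3 -0.17 and 0.88. Eif4e3 had the widest gap between arrays of all members, 1.05 on the log2 scale.

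The genes of the eIF4E-binding proteins, Eif4ebp1 and Eif4ebp2, had means of 0.20 and 0.06. Eif4ebp1, which holds eIF4E until mTOR phosphorylates it, read 0.23 and 0.17, and Eif4ebp2 0.27 and -0.15. Eif4enif1, a transporter of eIF4E, read -0.06 and -0.14, and Eif4g2, a scaffold that acts without the cap-binding protein, 0.14 and -0.58. None of the 4 had an unadjusted limma p under 0.05. Eif5a, which carries hypusine and helps the ribosome past stalling sequences, read -0.19 and -0.31. Eif6, which keeps the ribosomal subunits apart, read -0.17 and -0.63. Eif4g1 was not analysed here.

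**Figure D4:**
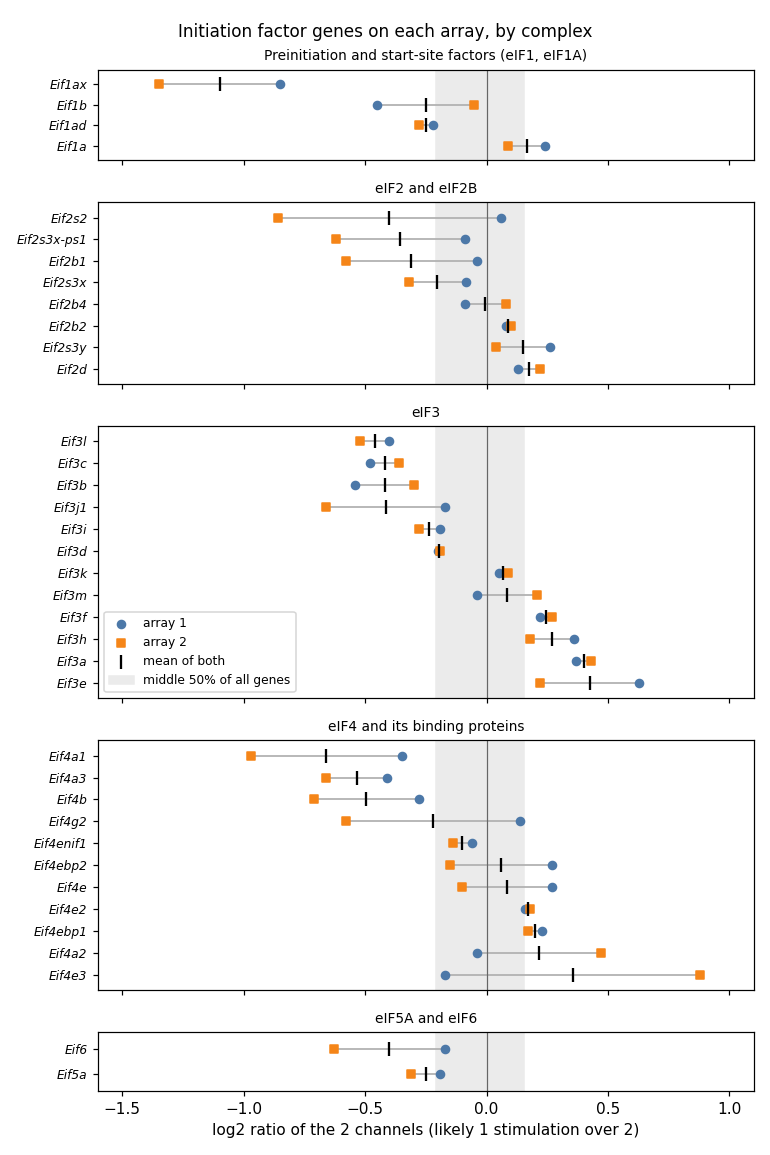
Log2 ratio of each initiation gene on array 1 (circle) and array 2 (square), joined by a line, with a tick at their mean, in panels by complex; the grey band holds the means of the middle 50% of all genes. Eif1ax is the farthest gene to the left, and the eIF3 panel divides into 6 genes left of 0 and 5 right of it on both arrays.

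Of the elongation genes proper, 6 of 7 were negative on both arrays and 0 positive, a count that includes a pseudogene. It also rests on averaging probes. Eef1d, Eef1a2 and Eef2 each had a probe of mixed sign, at 0.06 and -0.20, 0.03 and -0.05, and -0.31 and 0.11. With 1 probe per gene, the negative genes of the whole elongation class were 7 and not 9. Eef1g, a subunit of the complex that recharges eEF1A with GTP, was the lowest and agreed between arrays, at -0.68 and -0.87, a mean of -0.78 ± 0.13 (SD, n = 2) with a limma adjusted p of 0.161. Its partners in the same complex lay nearer 0, with Eef1d at -0.05 and -0.19 and Eef1b2 at 0.05 and -0.13. Eef1a1, which delivers charged tRNA to the ribosome, read -0.235 and -1.08, with its 2 probes at means of -0.42 and -0.895. The probe of the pseudogene Eef1a1-ps1 read -0.12 and -0.62, and near-identical copies of this gene may share signal. Eef1a2, the form of muscle and neurons, read -0.04 and -0.11.

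Eef2, which moves the ribosome along, had 3 probes with means between -0.25 and -0.10 and read -0.27 and -0.07 as a gene. Eef2k, the kinase that inactivates it, read -0.06 and -0.07. Among the enzymes that methylate these factors, Eef1aknmt read 0.31 and 0.30 and Eef2kmt 0.10 and 0.25, the 2 genes of the class that were positive on both arrays. The methyltransferase genes Eef1akmt1 and Eef1akmt2 read -0.23 and 0.12, and -0.10 and -0.39. Eef1e1, a scaffold protein of the multisynthetase complex despite its name, read -0.20 and -1.11. Without the pseudogene and these associated genes the class held 6 genes, of which 5 were negative and 0 positive on both arrays.

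**Figure D5:**
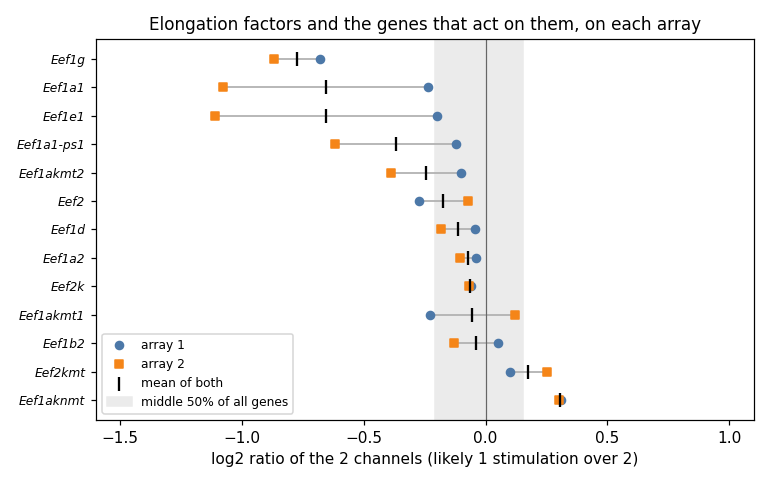
Log2 ratio of each elongation gene and each gene that acts on the factors, on array 1 (circle) and array 2 (square), joined by a line, with a tick at their mean; the grey band holds the means of the middle 50% of all genes. Eef1g is left of the band on both arrays, and Eef1a1 and Eef1e1 are much farther left on array 2 than on array 1.

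Other genes that control or complete translation were read in the same way, by lists chosen by function. Among the kinases, phosphatase subunits and binding proteins that control initiation, 8 of 17 had a negative and 3 a positive value on each array, with medians of -0.17 and -0.465. These are 47.1% and 17.6%, against 33.6% and 29.6% of all genes. Eif2ak4, the gene of the kinase GCN2 that senses uncharged tRNA and phosphorylates eIF2, read -1.56 and -1.23, a mean of -1.40 ± 0.23 (SD, n = 2) and a 2.63-fold difference. It was the only gene of this list at least 2-fold on both arrays. The other eIF2 kinases were Eif2ak3 (PERK, of the endoplasmic reticulum) at -0.29 and -0.81, Eif2ak1 at -0.46 and -0.19, and Eif2ak2, the kinase activated by double-stranded RNA, at 0.585 and -0.51. Pdcd4, an inhibitor of eIF4A, was farthest on the positive side at 0.64 and 0.63, opposite to Eif4a1 and Eif4b.

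Targets and partners of ATF4, including enzymes that make or import amino acids, lay mostly on the negative side. On both arrays 12 of the 20 genes were negative and 2 positive, against 33.6% and 29.6% of all genes. Medians of the list were -0.22 and -0.555. An unadjusted limma p under 0.05 was found for 9 of its genes, all negative (45.0%, against 10.3% of all genes). Without moderation this was 1 gene, also negative (5.0%, against 3.75% of all genes, close to that share). Psat1, an enzyme of serine synthesis, read -1.28 and -1.79, a 2.90-fold difference, and Asns, which makes asparagine, -0.48 and -0.85. Trib3 (0.50 and 0.21) and Chac1 (0.36 and 0.13), also known ATF4 targets, were positive on both arrays, and Atf4 itself read 0.01 and -0.91. So the list and the cytosolic synthetases lay on the same side by their medians, with members of both on the other side.

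The remaining lists read as follows against the 33.6% of all genes negative and 29.6% positive on both arrays. Genes of the mTOR pathway were 6 of 16 negative and 4 positive (37.5% negative, near that share), with medians of 0.01 and -0.16, and with Larp1 lowest (-0.30 and -1.10) and Rps6kb2 highest (0.14 and 0.57). The list of release and quality-control factors also held Selenbp2 (0.59 and 1.72), which encodes a selenium-binding protein and is no translation factor. Without it, a choice made after the values were seen, 7 of 13 genes were negative and 1 positive, with medians of -0.18 and -0.15. Pelo, a rescue factor of stalled ribosomes, read -0.64 and -0.87 and Etf1, the stop codon reader, -0.54 and -0.59. Mitochondrial translation factors were 3 of 7 negative and 2 positive, with medians of 0.07 and -0.08, from Qrsl1 (-0.29 and -0.72) to Gatb (0.33 and 0.23), which are subunits of one enzyme. Of further synthetase-related genes 1 of 7 was negative and 3 positive, with medians of 0.17 and 0.02, from Eprs, the glutamate and proline enzyme of the cytosol, at 0.19 and -1.06, to Dtd1 at 0.12 and 0.38. Over all genes limma passed 0 genes in these lists.

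Markers of other cells were read beside these results, against the 33.6% of all genes negative and 29.6% positive on both arrays. On both arrays 9 of 13 B cell markers were positive and 2 negative, their median being 0.11 on array 1 and 0.65 on array 2. The highest were the MHC class II genes Cd74, H2-Aa, H2-Ab1 and H2-Eb1, with the B cell receptor genes Cd79a and Cd79b. The MHC class II genes are not particular to B cells. They read between 0.06 and 0.57 on array 1 and between 1.71 and 2.84 on array 2, so their size rests on array 2. Cd79a read 0.31 and 1.06, and Cd79b 0.67 and 1.62. Without the MHC class II genes, a choice made after the values were seen, 5 of 9 were positive and 2 negative, with medians of 0.01 and 0.17. The B-lineage genes Ebf1, Blk, Cr2, Pax5 and Ms4a1 had means from -0.115 to 0.095. T cell markers were 7 of 9 positive and 1 negative, with medians of 0.13 and 0.45. Macrophage and dendritic cell markers were 3 of 8 negative and 2 positive, and NK and CD4 cell markers 2 of 5 negative and 1 positive. The NK cell marker Klrb1c read -0.77 and -1.88, a mean of -1.325 ± 0.785 (SD, n = 2) that is below that of every member and on the side of the cytosolic synthetases, while the NK cell receptor gene Ncr1 read -0.27 and -0.25. By their medians the B cell and T cell markers lay on the opposite side, and the part of any of these markers in the translation values was not tested.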

How the data were processed

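The authors deposited 1 signed value per probe and array, used here as the log2 ratio of the 2 channels of the array. Base 2 is an assumption, and scanner, dyes, background correction and normalization are not given in the sources used here. Of 21919 probes 21427 had a value on both arrays. By the platform's annotation, 15998 probes had 1 symbol, 288 several and 5633 none. Singly named probes with both values were averaged into 14150 genes; of the 74 members 68 had 1 probe. limma 3.58.1 (R 4.3.3) fitted the mean of each gene over the arrays, in 1 fit of all genes, and its two-sided moderated test against 0 was adjusted by Benjamini-Hochberg over all genes. The variance prior, pooled over all genes, had 3.55 degrees of freedom, against 1 from a gene's own 2 values. The steps were tested on simulated data. Class medians and counts have no test. The members and lists were chosen with earlier results of these data known. Every member could be named; the text gives those at least 2-fold on an array, the farthest of each class and set genes in more detail. Promoter sequences are RefSeq's (GRCm38.p6), matched by Entrez ID for 53 of the 74 genes; the sites of 1 matched gene are not reported here. Alternatives were other normalizations, probe summaries, namings, variance priors, thresholds and log base, leaving out each array, and changes of membership added after the data were seen.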

Additional observations from a re-analysis of the deposited data

How the results depend on the processing

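The median of gene means was -0.195 for initiation, -0.115 for elongation, -0.22 for cytosolic and 0.145 for mitochondrial synthetases and -0.1375 for all members. Differences between class medians given below are means of the differences on each array, and not differences of these medians. Leaving out array 1 and then array 2 gave -0.15 and -0.06 for initiation, -0.30 and -0.24 for cytosolic synthetases, 0.18 and 0.01 for mitochondrial synthetases and -0.14 and -0.09 for all members. Cytosolic synthetases positive were then 3 and 5, and 5 (without array 1) and 1 (without array 2) members were at least 2-fold. The difference of initiation minus elongation medians was -0.02 without array 1 and 0.04 without array 2. Read as natural logs, the medians were -0.28, -0.17, -0.32 and -0.20 (initiation, elongation, cytosolic, all), 2 members were at least 2-fold, and the initiation and elongation medians lay 0.238 and 0.224 above the cytosolic one. With each probe on its own the elongation median was -0.1475, and 0.13 above the cytosolic one. Median centring left 1 cytosolic synthetase positive, and at 1.5-fold 3 members passed. Without moderation limma passed 1 member, Farsa, whose values are identical on both arrays. At an unadjusted p under 0.05 it counted 4 negative and 4 positive members, against 3.75% and 3.36% of all genes.

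Of the settings chosen after seeing the data, leaving out pseudogenes and associated genes gave an elongation median of -0.144, with 5 negative and 0 positive genes, and 0.121 above the cytosolic median. Without Gars and Kars the cytosolic median was -0.305, with initiation 0.215 and elongation 0.205 above it, and with Eprs it was -0.2625. Other class results, quantile normalization and the robust prior included, kept their sign and stayed within 1.5 times for counts, or within the spread between arrays for medians. Among the 34 genes described in more detail, those on 1 side on both arrays kept their sign under the normalization, probe and naming settings. Leaving out an array could not change their sign, because they were picked for having the same sign on both. No paired analysis was possible because the series has 1 group, whose arrays already hold both stages. Intensities were not used, so weak spots could not be told from strong ones.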
